A study of Bos taurus with 4 samples.

Results

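The genes of cholesterol synthesis, with the factors that switch them on and the proteins that move sterols within the cell, were followed in bovine expanded blastocysts developed from vitrified morulae and from control morulae. The list held 27 genes, and probes were chosen by the gene symbol in the annotation of the array, which gave 51 probes of 26 genes among 43794 embryo probes. Of these, 46 probes of 25 genes passed the filter on dim probes, a signal above background in 4 or more of 8 readings, and were tested, among 28944 probes in all. No measured value entered the choice of the members, but they were chosen with earlier results of these data known.

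On each of the 4 arrays of 1 EmbryoGENE EMBV3 slide, RNA of 1 vitrified and 1 control pool was hybridized. The vitrified pools came from in vitro produced compact morulae that were exposed to ethylene glycol and dimethyl sulfoxide, plunged into liquid nitrogen on a cryotop, warmed and cultured on to the expanded blastocyst, and the control pools came from morulae of the same production that were cultured on without freezing. Arrays 1 and 2 had the vitrified pool in Cy5 and arrays 3 and 4 in Cy3, with the control pool in the other dye. Both groups were embryos of beef cattle sired by the semen of 1 bull, in pools of 7 blastocysts collected at day 7 after fertilization by the labels, whereas the Methods give 5 to 7 blastocysts per pool and the labels and Methods differ on whether the morulae were of day 6 or day 7. Each pool was whole embryos, so fewer cells of a type and less RNA per cell cannot be told apart, and the RNA passed through 2 rounds of amplification. By the Methods, the pools of a group came from separate cycles of fertilization, culture and freezing, and which cycle lies behind each array is not given in the sources used here.

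Cells build cholesterol from acetyl-CoA through mevalonate, the isoprenoid diphosphates, squalene and lanosterol, in a chain of enzymes on and around the endoplasmic reticulum. When sterols are low, SCAP carries the transcription factor SREBP2, the product of SREBF2, from the endoplasmic reticulum to the Golgi, where it is cut and released to switch on most genes of the chain. INSIG1 and INSIG2 hold SCAP back when sterols are plentiful, and INSIG1 is itself a target gene. In the early embryo cholesterol serves membrane growth, and its isoprenoid intermediates serve the prenylation of small GTPases.

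Of the 25 member genes, each taken by its brightest tested probe, 23 had a negative log2 fold change of vitrified over control blastocysts, against 49.6% of all 11417 genes with a tested probe. At an unadjusted p under 0.05 from limma, 10 of the 25 were lower in vitrified blastocysts, where 5.3% of all genes were, and 0 were higher, where 3.5% of all genes were. The 10 were HMGCS1, ACAT2 and MVK at the head of the chain, FDFT1, the enzyme that opens the sterol branch, CYP51A1, SC4MOL and EBP after lanosterol, INSIG1, and the sterol carriers NPC1 and NPC2. Their fold changes were small, from 1.28-fold lower for NPC2 to 1.70-fold lower for HMGCS1. None of the 46 probes passed an adjusted p under 0.05 (lowest 0.421), and 0% of all probes did. At the threshold of the study, 2-fold or more and an unadjusted p under 0.05, 0 of the 46 member probes were called, against 0.221% of all probes.

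**Figure D1:**
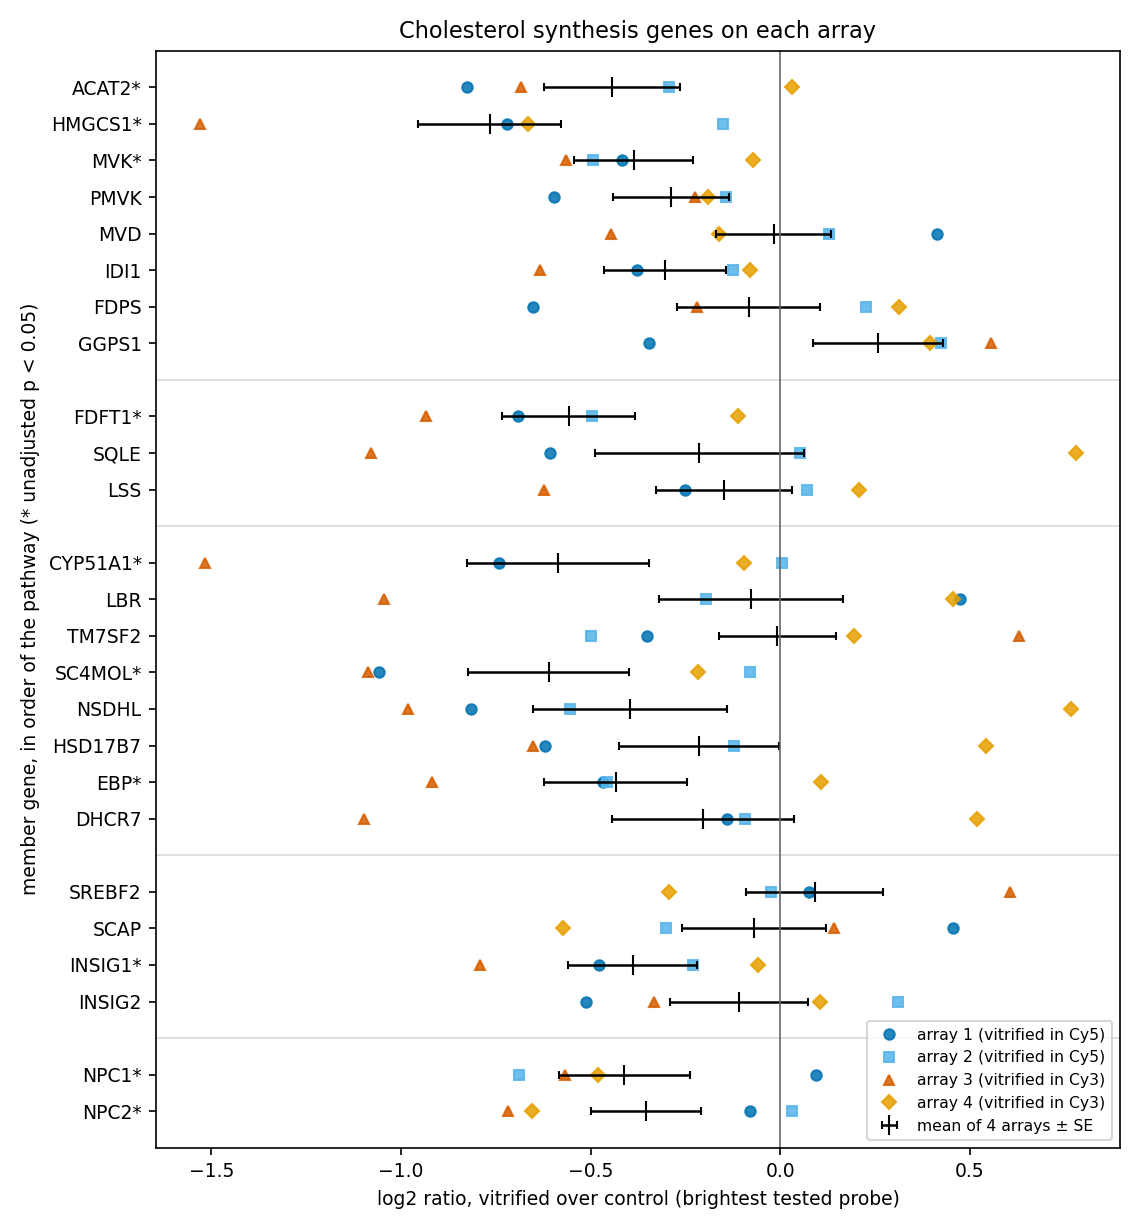
Log2 ratio of vitrified over control blastocysts (x axis) for the brightest tested probe of each of the 25 member genes (y axis, in pathway order, with lines between steps). Symbols are the 4 arrays and black bars are the mean ± SE. Means lie left of 0 for 23 genes, the triangles of array 3 are the lowest for 16 genes and the diamonds of array 4 the highest for 12. The shares of all genes with array 3 lowest or array 4 highest were not computed, and array 3 had the widest ratios over all genes.

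The size of the difference depended on the array. The median log2 ratio over the 25 members was -0.47 on array 1, -0.12 on array 2, -0.65 on array 3 and -0.058 on array 4, whereas that over all genes lay between -0.043 and 0.019. On these arrays 20, 17, 21 and 13 of 25 members were below 0, against 55.7%, 48.2%, 48.7% and 49.4% of all genes. The members stood apart from the other genes on arrays 1 and 3 and least on array 4, and each dye orientation held 1 array of either kind. The mean over arrays 1 and 2 had a median of -0.30 over the members, and the mean over arrays 3 and 4 one of -0.29, with 18 of 25 members below 0 in both orientations, against 26.1% of all genes. Array 3 was also the array with the widest ratios over all genes (SD 0.57, against 0.33 to 0.47 on the others), and the part of this in the result was not tested.

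**Figure D2:**
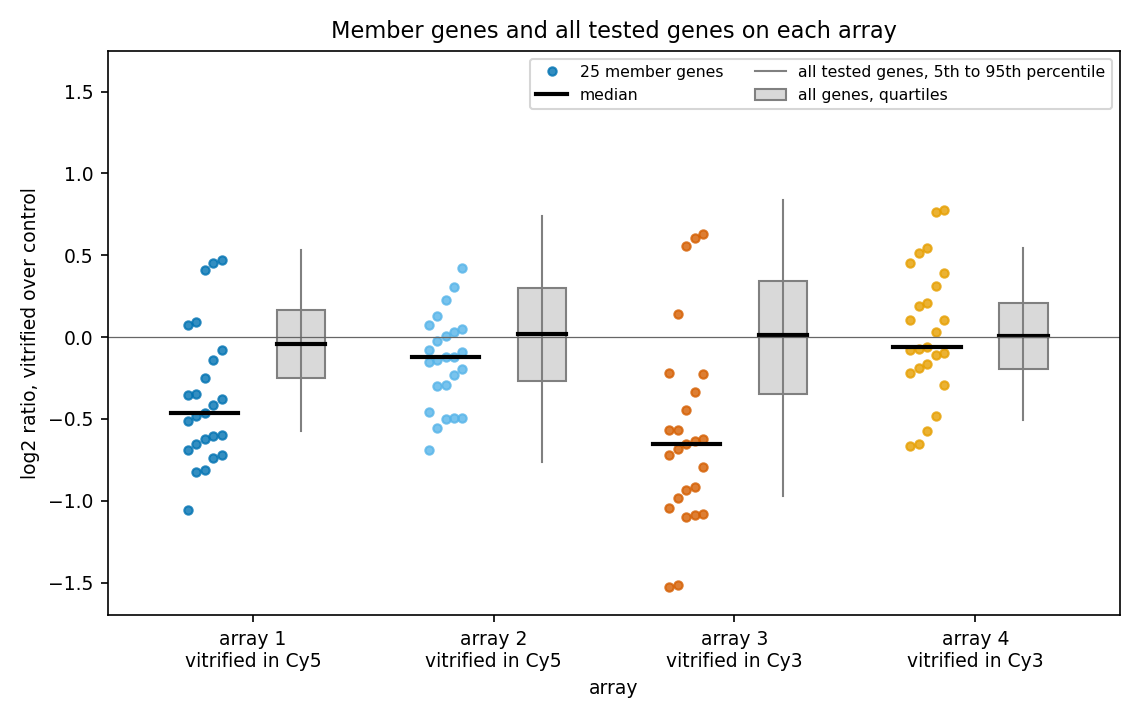
Log2 ratio of vitrified over control blastocysts (y axis) on each of the 4 arrays (x axis) for the 25 member genes (points, with their median) and for all 11417 genes (grey box for the quartiles, line for the 5th to 95th percentile). Members lie mostly under the box on arrays 1 and 3, with medians of -0.47 and -0.65, and around it on arrays 2 and 4, with medians of -0.12 and -0.058.

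Leaving out an array changed the count of lower members. Without array 3, HMGCS1 was the only member gene lower at an unadjusted p under 0.05, 15 of 25 members had a negative log2 fold change, and 2.38% of all genes were lower. Without array 4, 13 of 25 were lower, and 9.84% of all genes were. Without array 1 the count was 3, where 5.56% of all genes were lower, and without array 2 it was 5, where 2.93% were. FDFT1 lost its call only without array 3, ACAT2, CYP51A1 and SC4MOL without array 1 or 3, MVK, EBP and INSIG1 without array 1, 2 or 3, NPC1 without array 2, 3 or 4, and NPC2 whichever array was left out. The median over members was below 0 in each of these fits, from -0.45 without array 4 to -0.17 without array 3. When the dye term was dropped too, FDFT1 kept its call without array 3 and NPC2 without array 2.

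Counted by probe, 16 of the 46 member probes were lower at an unadjusted p under 0.05, against 4.36% of all probes tested, and 0 were higher, against 3.32%. The ratio was below 0 on all 4 arrays for 15 member probes, against 7.3% of all probes, and above 0 on all 4 for 1, the second probe of INSIG2, against 7.14%. For 6 member probes every vitrified pool had less signal than every control pool, against 1.69% of all probes, and for 0 member probes the reverse held, against 1.39%. These 6 were probes of HMGCS1, CYP51A1, FDPS and ACAT2 and 2 probes of SC4MOL.

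The first step from acetyl-CoA is made by ACAT2, the cytosolic acetoacetyl-CoA thiolase, and HMG-CoA synthase, the product of HMGCS1, makes the substrate of the rate-limiting reductase. HMGCS1 (EMBV3_14732) had normalized log2 intensities of 13.15, 13.42, 12.66 and 13.32 in the vitrified pools of arrays 1 to 4, against 13.87, 13.57, 14.19 and 13.99 in the control pools. Every vitrified pool was below every control pool. The ratios were -0.72, -0.15, -1.53 and -0.67, with a log2 fold change of -0.77 (SE 0.19, unadjusted p = 0.00306, adjusted p = 0.421). HMGCS1 kept its unadjusted call in each of the 18 alternative fits that gave it a value, the 8 fits without 1 array included. These fits share data and are not independent. The second probe of HMGCS1 (EMBV3_08646) had ratios of -0.51, -0.97, -1.90 and -0.31 and the most negative log2 fold change of all member probes, -0.92 (SE 0.24, unadjusted p = 0.00458, adjusted p = 0.477). The pools of that probe overlapped, since the vitrified pool of array 4 was above the control pool of array 1. The other two probes, both dimmer, were nearer to 0, with ratios of -0.14, -0.17, -0.31 and -0.0015 and of -0.11, -0.056, -0.59 and -0.055 and log2 fold changes of -0.15 and -0.20 (SE 0.15 and 0.16). All 4 probes of HMGCS1 were thus below 0 on all 4 arrays.

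ACAT2 (EMBV3_36234) had log2 intensities of 11.55, 11.75, 11.30 and 12.09 in the vitrified pools, against 12.38, 12.04, 11.98 and 12.05 in the control pools. Arrays 1 to 3 had ratios of -0.83, -0.29 and -0.68, and array 4 one of 0.031, so the groups overlapped through the vitrified pool of array 4. The log2 fold change was -0.44 (SE 0.18, unadjusted p = 0.0358, adjusted p = 0.634). Its dimmer probe had ratios of -0.36, -0.25, -0.87 and -0.068 without overlap between the pools and a log2 fold change of -0.39 (unadjusted p = 0.0525).

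Mevalonate kinase, the product of MVK, makes the first of the phosphorylated mevalonates. Its brightest probe had log2 intensities of 8.96, 9.72, 8.99 and 9.80 in the vitrified pools, against 9.38, 10.21, 9.56 and 9.88 in the control pools. The pools of the groups overlapped, since the arrays differed more in level than the groups did, but within each array the vitrified pool was the lower one, with ratios of -0.42, -0.49, -0.57 and -0.073. The log2 fold change was -0.39 (SE 0.16, unadjusted p = 0.0354), but -0.16 as the mean over its 3 probes (unadjusted p = 0.283), and its unadjusted p was 0.0735 with an intensity trend and robust fit. The 2 dimmer probes of MVK, with ratios of 0.55, -0.10, -0.16 and -0.29 and of -0.24, -0.24, 0.17 and -0.033, had log2 fold changes of -0.0016 and -0.084, and the first of these was above 0 under loess without quantile normalization, the authors' ratios and median centring.

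The other genes of the mevalonate and isoprenoid steps did not pass the unadjusted threshold. PMVK, phosphomevalonate kinase, and IDI1, the isomerase of isopentenyl diphosphate, were below 0 on all 4 arrays, with ratios from -0.60 to -0.14 and from -0.63 to -0.079, and log2 fold changes of -0.29 (SE 0.15, unadjusted p = 0.0945) and -0.30 (SE 0.16, unadjusted p = 0.0932). The dimmer probe of PMVK had -0.066 (SE 0.15). MVD, which makes isopentenyl diphosphate, had ratios of 0.41, 0.13, -0.45 and -0.16, so its mean of -0.017 (SE 0.15) stood between opposite dye orientations and was above 0 under loess without quantile normalization and with the authors' ratios. FDPS makes farnesyl diphosphate, the branch point between sterols and protein prenylation. The brightest of its 4 probes had ratios of -0.65, 0.23, -0.22 and 0.31 and a log2 fold change of -0.084 (SE 0.19), and the 3 dimmer probes had -0.30, -0.29 and -0.32. The dimmest varied least, with ratios of -0.40, -0.31, -0.24 and -0.35, no overlap between the pools and an unadjusted p of 0.0525. GGPS1, which draws farnesyl diphosphate into geranylgeranyl diphosphate for prenylation and away from sterols, had ratios of -0.35, 0.42, 0.56 and 0.39 and a log2 fold change of 0.26 (SE 0.17, unadjusted p = 0.17), the largest positive value of the 25 members in this fit, but -0.021 under median centring. Over the 8 genes of these steps the median log2 fold change was -0.30, and 7 were below 0.

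Squalene synthase, the product of FDFT1, makes the first intermediate that belongs to sterols alone. FDFT1 (EMBV3_14929) had log2 intensities of 12.14, 12.15, 12.01 and 12.70 in the vitrified pools, against 12.83, 12.65, 12.94 and 12.81 in the control pools. The vitrified pools of arrays 1 to 3 were below every control pool, and that of array 4 was above the control pool of array 2. The ratios were -0.69, -0.50, -0.93 and -0.11, with a log2 fold change of -0.56 (SE 0.18, unadjusted p = 0.0116, adjusted p = 0.57). Its dimmer probe had ratios of 0.22, -0.29, 0.065 and -0.25 and a log2 fold change of -0.064 (SE 0.16), and the mean over both probes was -0.31 (unadjusted p = 0.0562).

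SQLE, the squalene epoxidase, varied most between arrays among the brightest probes of the members, with a ratio SD of 0.81. Its control pools lay close together, from 12.17 to 12.41 log2 units, whereas its vitrified pools ran from 11.33 on array 3 to 12.95 on array 4. The ratios of -0.61, 0.052, -1.08 and 0.78 gave a log2 fold change of -0.21 (SE 0.28, unadjusted p = 0.459). LSS, which closes the ring to lanosterol, had ratios of -0.25, 0.071, -0.62 and 0.21 and a log2 fold change of -0.15 (SE 0.18). Thus 1 of the 3 genes between farnesyl diphosphate and lanosterol passed the unadjusted threshold, and all 3 were below 0 in the mean (median -0.21).

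**Figure D3:**
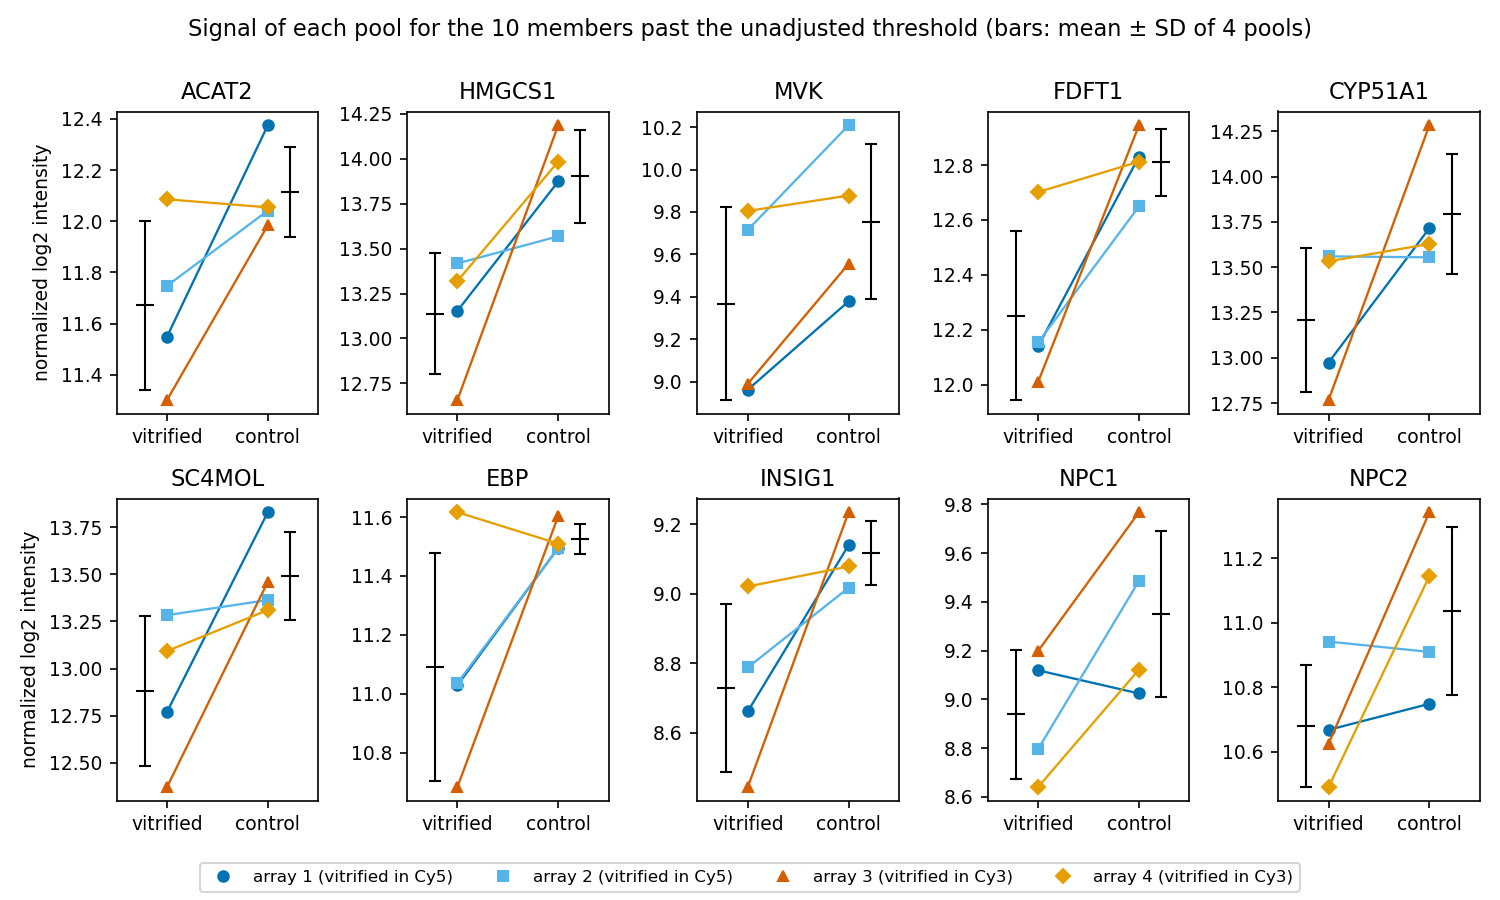
Normalized log2 intensity (y axis, its own range in each panel, not from 0) of the vitrified and control pools (x axis) for the brightest tested probe of the 10 members with an unadjusted p under 0.05, with a line joining the pools of an array and bars for the mean ± SD of 4 pools. Lines run upwards to the control pool on all 4 arrays for HMGCS1, MVK, FDFT1, SC4MOL and INSIG1, and the vitrified pool of array 4 is close to or above its control pool for ACAT2, MVK, FDFT1, CYP51A1, EBP and INSIG1.

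Lanosterol is demethylated by CYP51A1, and its 3 probes were all lower at an unadjusted p under 0.05. The brightest (EMBV3_11161) had log2 intensities of 12.97, 13.56, 12.77 and 13.53 in the vitrified pools, against 13.72, 13.55, 14.28 and 13.63 in the control pools. Its ratios of -0.74 and -1.52 on arrays 1 and 3 stood against 0.0055 and -0.096 on arrays 2 and 4, and the groups overlapped only through the vitrified pool of array 2, which was just above its control pool. The log2 fold change was -0.59 (SE 0.24, unadjusted p = 0.0372, adjusted p = 0.635). The second probe had ratios of -0.58, -0.33, -1.14 and -0.070 with no overlap between the pools and a log2 fold change of -0.53 (SE 0.19, unadjusted p = 0.0239). The third had ratios of -1.15, -0.56, -1.30 and 0.10 and a log2 fold change of -0.73 (SE 0.23, unadjusted p = 0.0123). All 3 probes thus had their lowest ratio on array 3 and their next lowest on array 1.

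SC4MOL, now named MSMO1, removes the methyl groups at carbon 4 together with NSDHL and HSD17B7. SC4MOL (EMBV3_13438) had log2 intensities of 12.77, 13.28, 12.37 and 13.09 in the vitrified pools, against 13.83, 13.36, 13.46 and 13.31 in the control pools. No vitrified pool reached a control pool, although the gap on array 2 was small, with ratios of -1.06, -0.080, -1.09 and -0.22. The log2 fold change was -0.61 (SE 0.21, unadjusted p = 0.0187, adjusted p = 0.603). Of its 3 dimmer probes, the first had ratios of -0.33, 0.0066, -0.65 and -0.28 (log2 fold change -0.31, unadjusted p = 0.0752), and the next had -0.45, -0.29, -0.62 and -0.16 with no overlap between pools (log2 fold change -0.38, unadjusted p = 0.0375). The dimmest had 0.022, 0.059, -0.060 and 0.16 and a log2 fold change of 0.046 (SE 0.15), which was -0.15 under median centring. The probes of SC4MOL thus disagreed, and their mean had an unadjusted p of 0.0772.

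EBP, the isomerase that shifts the ring double bond, had log2 intensities of 11.03, 11.04, 10.68 and 11.62 in the vitrified pools, against 11.50, 11.49, 11.60 and 11.51 in the control pools. The control pools lay close together (SD 0.052), and 3 vitrified pools were below all of them while that of array 4 was above them. With ratios of -0.47, -0.46, -0.92 and 0.11, the log2 fold change was -0.43 (SE 0.19, unadjusted p = 0.0478), a call that 5 of 10 alternatives other than leaving out an array did not keep.

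The remaining genes after lanosterol did not pass. NSDHL had ratios of -0.81, -0.55, -0.98 and 0.77 (log2 fold change -0.40, SE 0.26), HSD17B7 had -0.62, -0.12, -0.65 and 0.54 (-0.21, SE 0.21), and DHCR7, which makes cholesterol in the last step, had -0.14, -0.092, -1.10 and 0.52 (-0.20, SE 0.24). All 3 were below 0 on arrays 1 to 3 and above 0 on array 4. LBR and TM7SF2 carry the same reductase activity at carbon 14, and LBR is also a receptor of the nuclear lamina. LBR had ratios of 0.47, -0.20, -1.04 and 0.46 and a log2 fold change of -0.078 (SE 0.24), and TM7SF2 had -0.35, -0.50, 0.63 and 0.19 and a log2 fold change of -0.0075 (SE 0.15), with an unadjusted p of 0.0243 for the dye. The second probe of TM7SF2 had ratios of 0.15, -0.032, 0.21 and 0.057 and a log2 fold change of 0.095 (SE 0.15). The 8 genes from lanosterol to cholesterol were all below 0 in the mean (median -0.30), with a median of -0.54 on array 1, -0.16 on array 2, -1.01 on array 3 and 0.32 on array 4, so that array 4 ran against the others for these genes. SC5D, the desaturase of this part of the chain, had no probe under its symbol, but the gene table of ARS-UCD2.0 lists SC5DL as its synonym, and the probe named SC5DL had ratios of -0.39, 0.22, -0.043 and -0.34 and a log2 fold change of -0.14 (SE 0.17).

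The regulators did not move together. SREBF2, whose product is the activator of the chain, had log2 intensities of 13.71, 13.46, 13.43 and 12.58 in the vitrified pools, against 13.63, 13.48, 12.83 and 12.87 in the control pools, and the groups overlapped widely. Its ratios were 0.075, -0.025, 0.61 and -0.29, with a log2 fold change of 0.090 (SE 0.18, unadjusted p = 0.629, 95% interval -0.32 to 0.50) that was -0.18 under median centring and -0.0036 as the mean over its probes. The second probe had 0.20, 0.57, -0.95 and -0.20 and a log2 fold change of -0.097 (SE 0.17), with an unadjusted p of 0.0231 for the dye, and its remaining probe was not well above background. SCAP, the escort of SREBP2, had ratios of 0.45, -0.30, 0.14 and -0.57 and a log2 fold change of -0.070 (SE 0.19, 95% interval -0.50 to 0.36).

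INSIG1 was lower at an unadjusted p under 0.05 with each of its 3 probes. The brightest (EMBV3_36644) had log2 intensities of 8.66, 8.79, 8.44 and 9.02 in the vitrified pools, against 9.14, 9.02, 9.24 and 9.08 in the control pools, with overlap through the vitrified pool of array 4. Its ratios were -0.48, -0.23, -0.79 and -0.058 (log2 fold change -0.39, SE 0.17, unadjusted p = 0.0495, adjusted p = 0.651). The second had ratios of -1.19, -1.29, -0.48 and 0.50 (log2 fold change -0.61, SE 0.19, unadjusted p = 0.00948) and an unadjusted p of 0.0087 for the dye, so that this probe was lower by more with the vitrified pool in Cy5. The third had -0.26, -0.74, -0.078 and -0.41 (log2 fold change -0.37, SE 0.16, unadjusted p = 0.0458). The probes of INSIG1 therefore shared a direction in the mean but not the array that was lowest. INSIG2, which does the same work as INSIG1 but is not driven by SREBP2 in the same way, had ratios of -0.51, 0.31, -0.33 and 0.10 (log2 fold change -0.11, SE 0.18) with its brightest probe and 0.17, 0.094, 0.37 and 0.12 (0.19, SE 0.15) with the second, and the mean over both was 0.040.

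**Figure D4:**
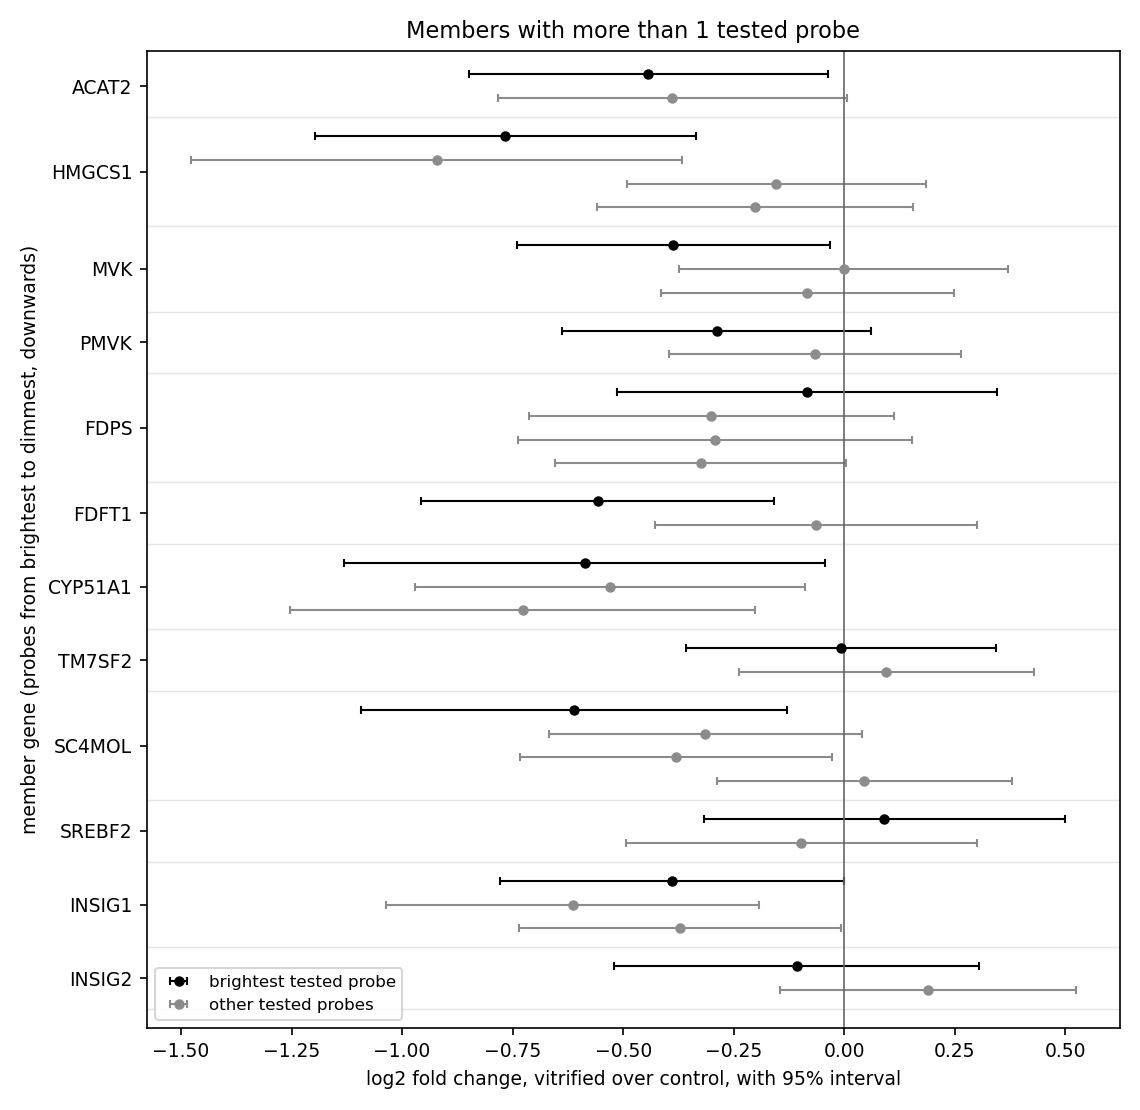
Log2 fold change of vitrified over control blastocysts with its 95% interval (x axis) for each tested probe of the 12 members with more than 1 tested probe (y axis, brightest probe in black at the top of each gene). All probes lie below 0 for 8 genes and on both sides of 0 for 4, and the 2 dimmest probes of HMGCS1 and the dimmer probes of MVK, FDFT1 and SC4MOL lie nearer to 0 than the brightest.

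NPC1 and NPC2 move cholesterol out of late endosomes and lysosomes. NPC1 had log2 intensities of 9.12, 8.80, 9.20 and 8.64 in the vitrified pools, against 9.02, 9.49, 9.77 and 9.12 in the control pools, with overlap. Its ratios were 0.095, -0.69, -0.57 and -0.48 (log2 fold change -0.41, SE 0.17, unadjusted p = 0.0411, adjusted p = 0.64), and without array 2 its log2 fold change was -0.22 (unadjusted p = 0.321). With an intensity trend and robust fit the unadjusted p of NPC1 was 0.0625. NPC2 had log2 intensities of 10.67, 10.94, 10.63 and 10.49 in the vitrified pools, against 10.75, 10.91, 11.34 and 11.14 in the control pools, also with overlap. Its ratios of -0.081, 0.032, -0.72 and -0.65 gave a log2 fold change of -0.35 (SE 0.14, unadjusted p = 0.0373), with an unadjusted p of 0.0491 for the dye and no call without the dye term (unadjusted p = 0.0762). Both carriers were among the 13 of 25 members below 0 on array 4, where 49.4% of all genes were. STARD4, a soluble sterol carrier, was not well above background with any of its 3 probes, in 0 of 4 vitrified readings and in 0 or 1 of 4 control readings, and was not tested.

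The members agreed in sign more than in rank. Across the 25 genes, the ratios of arrays 1 and 3 had a Pearson correlation of 0.35 and those of the other pairs of arrays lay between -0.22 and 0.16, as a description over genes that share an array and are not independent. Of the 12 genes with more than 1 tested probe, 8 had all probes below 0, and in 7 the brightest probe was the most negative. The shares of all genes with these traits were not computed. Of the 21 tested probes that were not the brightest of their gene, 18 were below 0 and 6 of these passed the unadjusted threshold. Of all 28944 tested probes, the brightest included, 14149 were below 0 and 4.36% were lower at that threshold. Members gave strong signals, with 13 of 25 above the upper quartile of signal over all genes. There 7 of the 13 were lower at an unadjusted p under 0.05, against 6.65% of all genes above that quartile, and between the median and the upper quartile 3 of 8 were, against 7.32%. Across members the mean signal and the log2 fold change had a correlation of -0.42 (Spearman's rho -0.42), against -0.016 across all genes.

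The other sterol genes, a list of 34 that are not members, differed between their groups. Of these, 27 had a tested probe, 4 were lower and 0 higher at an unadjusted p under 0.05, where 5.3% and 3.5% of all genes were, 15 were below 0, and their median log2 fold change was -0.046. The 6 genes of SREBP processing and sterol sensing had a median of -0.38, with 4 below 0, and 2 of them were lower, MBTPS2, the site-2 protease that releases SREBP2 (-0.57, SE 0.17, unadjusted p = 0.00953), and SREBF1, which encodes the sister factor SREBP1 (-0.47, SE 0.21, unadjusted p = 0.0491). MBTPS2 was below 0 on all 4 arrays (-0.66, -0.59, -0.91 and -0.12), as was SREBF1 (-0.36, -0.0085, -1.35 and -0.16). MBTPS1, the site-1 protease, had 0.26 (SE 0.16, unadjusted p = 0.133). Of 7 genes of sterol esters and export, TMEM97, a regulator of NPC1, was lower (-0.47, SE 0.15, unadjusted p = 0.0109), and of 12 genes of the isoprenoid branch, RABGGTA, a subunit of the Rab geranylgeranyl transferase, was lower (-0.45, SE 0.18, unadjusted p = 0.0312), whereas the median of that branch was 0.022. Neither gene of sterol uptake with a tested probe, SCARB1 and MYLIP, passed (-0.22 and -0.17).

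Over dyes and arrays, 60.1% to 67.3% of probes were above background, and no member spot was saturated. Markers of the blastocyst were measured in all 8 readings, CDX2 of the trophectoderm, NANOG and POU5F1 of the inner cell mass and GATA4 of the hypoblast among them. SOX17 of the hypoblast was above background in only 2 vitrified and 2 control readings. UTF1 of the inner cell mass and GATA6 of the hypoblast had no probe under their symbol. Each marker was counted by its brightest tested probe, and 5.3% of all genes were lower and 3.5% higher at an unadjusted p under 0.05. The 11 trophectoderm markers had a median log2 fold change of -0.30, with 3 lower (PAG12, PAG2 and IFNT, of multigene families) and 0 higher, and array medians of 0.14, -0.61, -0.67 and -0.12. Their summed intensity overlapped, from 117000 to 147000 units in the vitrified pools and from 125000 to 166000 in the control pools. The sum weighs bright markers most, KRT8, KRT18 and TFAP2C, at log2 intensities of 15.92, 14.71 and 15.06 in the vitrified pool of array 1. In that pool IFNT, PAG2 and PAG12 were at 12.68, 10.03 and 8.68. Array 1, where members had a median of -0.47, had the highest trophectoderm median. The 3 markers called lower, IFNT, PAG2 and PAG12, had ratios of -1.29, -1.39 and -1.34 on that array. Of 5 inner cell mass markers 2 were higher (SPIC and KLF4) and 1 lower (NANOG), and of 6 hypoblast markers 1 was higher (PDGFRA) and 2 were lower (HNF4A and APOA1). The ratios of PDGFRA, 1.25, 1.30, -0.54 and -0.14, had opposite signs in the dye orientations. Dimmer tested probes had log2 fold changes of -0.089 and 0.056 for PDGFRA, -0.017 and -0.074 for HNF4A and -0.69 for APOA1. Those of the other lineages had 0.25 for SPIC (unadjusted p = 0.156), -0.17 for TEAD4, and 0.14 and 0.34 for TFAP2C. The last of these was higher at an unadjusted p of 0.0436 from limma. Of the cumulus and granulosa markers, HAS2, AMH and FOXL2 were above background in 0 of 8 readings and STAR and CYP19A1 in 8, and of the oocyte markers GDF9 was in 0, NLRP5 in 5 and BMP15 and ZP3 in 7. The 6 tested cumulus and granulosa genes had a summed intensity of 1630 to 1910 in the vitrified pools and 1560 to 2640 in the control pools, with 1 lower (FSHR) and 0 higher. The 3 tested oocyte genes had 337 to 437 in the vitrified pools and 407 to 474 in the control pools, with 1 lower (ZP3) and 0 higher by the brightest probe. The probes of ZP3 disagreed, with log2 fold changes of -0.38 (unadjusted p = 0.0322) for the brightest and 0.40 (unadjusted p = 0.0298) for another. That other probe was above background in 4 vitrified and 0 control readings. The part of these markers in the result was not tested.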

How the data were processed

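The deposited intensity of a spot is its median signal for each dye, beside the median of its local background, before any subtraction. The authors also deposited log2 ratios, Cy5 over Cy3, after background subtraction, lowess and quantile normalization in FlexArray. They correlated at 0.99894 or above with loess-normalized ratios before quantile normalization, were not turned for the dye, and served as an alternative. The genome build is not given in the sources used here, and gene names come from the platform annotation.

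Intensities were analysed in R 4.3.3 with limma 3.58.1. Values at or below 0 after subtraction of the local background were set to 0.5, ratios were normalized with loess (control spots at weight 0) and between arrays by quantiles, and were turned to vitrified over control. A reading above the mean plus 2 SD of 153 negative control spots was called above background. Probes above background in at least 4 of 8 readings were fitted with the group difference and a dye term (2 residual and 6.8 prior degrees of freedom), two-sided p values were adjusted with Benjamini-Hochberg over all 28944 probes, and a gene took its brightest tested probe. Normalized log2 intensities give levels per pool, which are compared within a probe only. The number of arrays limits the precision.

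The members and lists were chosen with earlier results of these data known. All members are named, with values per array for those lower or higher at an unadjusted p under 0.05, for the regulators and for genes whose probes disagree in sign, and genes of the other sterol list at that p. Some further values per array were added after they were seen. The fit was tested on simulated data. Alternatives were the deposited ratios, loess alone, median centring, normexp (offset 50), raw signal, other filters, no dye term, a robust fit with an intensity trend, a mean over the probes of each gene, and leaving out each array. Slow-frozen embryos were not analysed here.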

Additional observations from a re-analysis of the deposited data

Results flagged for a closer look

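The dimmest tested probe of HMGCS1 had a log2 ratio of vitrified over control blastocysts of -0.586 on array 3, apart from -0.11, -0.056 and -0.055 on arrays 1, 2 and 4. The gap to the nearest array was 0.8945 of the range of the 4 arrays, above Dixon's critical value for 4 values. It was the only 1 of 46 member probes with such a gap, and chance gives about 1 in 20.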

How the results depend on the processing

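HMGCS1, ACAT2 and CYP51A1 kept their unadjusted call in each of 10 alternatives that used all 4 arrays. These are not independent. Loess alone and the authors' ratios gave nearly the same values (HMGCS1 -0.79 with both), and the other filters left the ratios unchanged. The count of 10 lower members was 5 with an intensity trend and robust fit, where 5.39% of all genes were lower. It was 6 with the mean over a gene's probes, where 4.48% were. The threshold of the study gave 2 member probes, both of HMGCS1, under median centring. Median centring alone moved the median of all genes to -0.14, and 14.7% of all genes were then lower and 0.876% higher (5.3% and 3.5% in the fit reported), with 12 of 25 members lower and a member median of -0.53. Signs turned for MVD (0.022 with loess only and with the authors' ratios), for the second probe of MVK (0.059 with both, 0.074 under median centring), for GGPS1 (-0.021), the dimmest SC4MOL probe (-0.15) and SREBF2 (-0.18) under median centring, and for INSIG2 (0.040), SREBF2 (-0.0036) and TM7SF2 (0.044) with the mean over probes, none past the unadjusted threshold, and the cause was not tested.

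Each array was left out with and without the dye term, the second added after seeing the data, because with it the array left alone in its orientation weighs as much as the other two. Over these 8 fits, 1 to 13 member genes were lower and 0 to 1 higher (GGPS1), where 2.38% to 9.84% of all genes were lower and 1.55% to 7.16% higher. Of the members, 15 to 21 were below 0, 3 to 21 probes were lower and 0 to 1 higher, 0 to 1 passed the adjusted p (HMGCS1, without array 4), 0 to 2 the threshold of the study, and the member median ran from -0.45 to -0.17. Without the dye term, leaving out array 3 gave 2 lower genes, against 3.1% of all genes. Ranges that crossed 0 were -0.30 to 0.14 for FDPS, -0.31 to 0.097 for INSIG2, -0.45 to 0.30 for LBR, -0.16 to 0.13 for MVD, -0.26 to 0.12 for SCAP, -0.22 to 0.16 for TM7SF2, -0.61 to 0.20 for DHCR7, -0.51 to 0.085 for HSD17B7, -0.36 to 0.059 for LSS, -0.83 to 0.041 for NSDHL, -0.68 to 0.25 for SQLE and -0.13 to 0.32 for SREBF2 (second probe -0.32 to 0.19). Among dimmer probes they were -0.19 to 0.063 for FDFT1, -0.18 to 0.16 for MVK, -0.0097 to 0.10 for SC4MOL and -0.16 to 0.013 for PMVK. No paired analysis was possible because there is 1 group of ratios, and each ratio already pairs the pools of an array.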
